A study of Mus musculus with 9 samples.

Results

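The 10 genes that mark fat cells, fixed by name, were followed through the comparisons of ovaries from tumour-bearing mice: Adipoq, Lep, Plin1, Plin4, Fabp4, Cidec, Pparg, Lpl, Cfd and Retn. All 10 were among the 19517 genes of the authors' deposited table, and all 10 had values in all 3 comparisons. The RNA came from ovaries of female BALB/c nude mice, which lack a thymus, and was measured by RNA-seq. Every mouse, the controls included, carried a xenograft of the human breast cancer line MDA-MB-231. The labels of the CAU group (3 libraries) name caulerpin, an indole alkaloid of green algae, and are silent on whether cyclophosphamide was given as well. The CTX group (3 libraries) received cyclophosphamide, an alkylating chemotherapy drug. The UT group (3 libraries) had no treatment. Neither ages, doses nor times are in the labels, and no label ties a library to its own mouse, so the spread behind the p-values is that between libraries and may be technical in part.

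Adipocytes store triglyceride in a large lipid droplet and release it as fatty acids between meals. PPARγ, encoded by Pparg, is the nuclear receptor that drives their differentiation, and together with C/EBP factors it turns on genes for droplet coats, fatty acid uptake and secreted hormones. Fat cells are not part of the ovary proper. The mouse ovary sits in a thin bursa next to a fat pad, and such fat can come with the organ when it is dissected.

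The authors' deposited table gives, for each gene and pair of groups, the log2 fold change with its DESeq2 p-value and adjusted p. Values per library were not used here, so levels, the overlap of single ovaries and the abundance of ovarian or fat cell markers could not be examined, and sequencing depth is unknown here. Beside each log2 fold change stands a standard error (SE) worked out from its p-value. A column that names a pair of groups was taken as second over first. The table leaves that unsaid, and all directions given here would turn round if it is the other way. Under this reading, Cdkn1a, which encodes the cell cycle inhibitor p21, was at 1.99 (SE 0.32, adjusted p = 9.15e-07) in CTX against UT by the authors' deposited table. For a lower value in bulk tissue, fewer adipocytes, less RNA per adipocyte and less RNA from other cells that make it cannot be told apart.

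All 10 members had negative log2 fold changes in CTX against UT, and 6 of them lay at or below -1, but none passed the threshold of an adjusted p under 0.05. For comparison, 1.29% of the 19260 genes tested passed it, 55.8% were below 0 and 9.25% lay at or below -1. The median of the members was -1.36 with a median SE of 0.91, while the median over all genes was -0.03 with a median SE of 0.21. A mean of the members weighted by 1/SE squared was -0.47, nearer to 0 because Pparg and Plin1 have the smallest SEs. At an unadjusted p under 0.05, 2 of the 10 members were lower, Plin1 and Cfd, where 10.2% of all genes passed in either direction and 5.79% were lower.

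The 3 lipid droplet genes among the members had negative values in CTX against UT, and none passed. Cidec, which encodes a protein that fuses lipid droplets into a large one, was at -1.94 (SE 1.11, adjusted p = 0.585) in CTX against UT by the authors' deposited table, 0.26 times the UT level, with a 95% interval from -4.11 to 0.22. Plin4, a perilipin found on newly forming droplets, was at -1.36 (SE 0.84, adjusted p = 0.661) by the authors' deposited table. Plin1, the perilipin that coats the mature droplet and controls access of lipases, had a smaller and more precise value of -0.76 (SE 0.34, unadjusted p = 0.0239, adjusted p = 0.365) by the authors' deposited table. The interval of Plin1, from -1.42 to -0.10, did not hold 0, whereas those of Cidec and Plin4 did.

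The values of the secreted factors varied. Cfd, encoding adipsin or complement factor D, was at -1.92 (SE 0.97, unadjusted p = 0.0482, adjusted p = 0.486) in CTX against UT by the authors' deposited table. Adipoq, the adiponectin gene, was at -1.54 (SE 0.97, adjusted p = 0.67), and Retn, which encodes resistin, was at -1.36 (SE 1.00, adjusted p = 0.79) by the authors' deposited table. Lep, which encodes the satiety hormone leptin, was at -0.01 (SE 0.62, adjusted p = 0.999) by the authors' deposited table. Its interval ran from -1.23 to 1.2, so it still held differences of about 2-fold in both directions.

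The genes of fatty acid handling and the nuclear receptor differed in precision. Fabp4, a carrier of fatty acids inside the cell that macrophages and endothelial cells also make, was at -1.56 (SE 1.04, adjusted p = 0.714) in CTX against UT by the authors' deposited table. Lpl, the lipase that frees fatty acids from lipoproteins at the capillary wall, was at -0.99 (SE 0.67, adjusted p = 0.72) by the authors' deposited table. Pparg itself was at -0.02 (SE 0.22, adjusted p = 0.994) by the authors' deposited table, with an interval from -0.44 to 0.40. Pparg is also known from granulosa cells and macrophages. When all genes were centred on their median, Pparg and Lep came out at 0.00 and 0.01, so the sign of both depended on that centring.

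**Figure D1:**
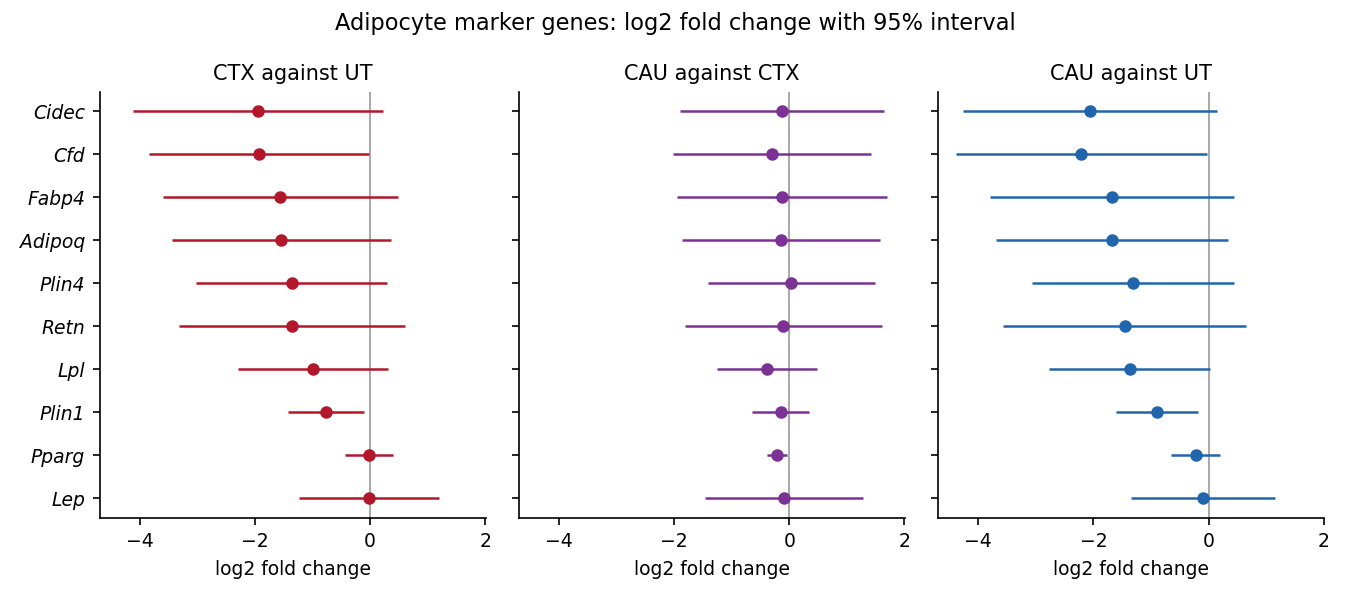
Log2 fold change (x axis) of the 10 adipocyte marker genes (rows) in CTX against UT, CAU against CTX and CAU against UT, with points for the deposited values and lines for the 95% interval from the implied SE. In CTX against UT the points run from -1.94 for Cidec to -0.01 for Lep, and the intervals of 8 of the 10 genes hold 0.

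Between CAU and CTX, the log2 fold changes of most adipocyte markers were near 0, with wide intervals. Of the 10 members, 8 lay within 0.25 of 0 on the log2 scale, 9 were negative and none passed, where 0.442% of 19245 genes passed and 47.7% were negative. The members' median was -0.13, and the median over all genes was 0.00. Adipoq was at -0.15 (SE 0.87, interval from -1.86 to 1.57) and Fabp4 at -0.12 (SE 0.93, interval from -1.95 to 1.70) in CAU against CTX by the authors' deposited table. Cidec at -0.12 (SE 0.90), Retn at -0.11 (SE 0.87), Lep at -0.09 (SE 0.70) and Plin4 at 0.04 (SE 0.74) were as imprecise by the authors' deposited table. The values furthest from 0 were those of Lpl at -0.39 (SE 0.45) and Cfd at -0.30 (SE 0.88) by the authors' deposited table.

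The most precise member in CAU against CTX was Pparg. In the authors' deposited table it was at -0.21 (SE 0.09, unadjusted p = 0.0166, adjusted p = 0.625), 0.865 times the CTX level, with an interval from -0.38 to -0.04. It was the 1 member with an unadjusted p under 0.05, where 5.36% of all genes passed in either direction. Plin1 was at -0.15 (SE 0.25, interval from -0.65 to 0.35) by the authors' deposited table.

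In CAU against UT the adipocyte markers were again on the lower side, in a comparison that shares the UT libraries with CTX against UT. All 10 members were negative, 7 lay at or below -1 and none passed, where 0.0518% of 19302 genes passed, 52.2% were negative and 4.47% lay at or below -1. The median was -1.41, with a median SE of 0.96, and the mean weighted by 1/SE squared was -0.62. Cfd was at -2.21 (SE 1.11, unadjusted p = 0.0465) and Cidec at -2.06 (SE 1.13, unadjusted p = 0.068) in CAU against UT by the authors' deposited table. Plin1 was at -0.90 (SE 0.36, unadjusted p = 0.013) by the authors' deposited table. These adjusted p-values were all 1.00 after rounding. At an unadjusted p under 0.05, Plin1 and Cfd were again the 2 members below UT, where 3.46% of all genes passed in either direction and 2.26% were lower.

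Adipoq was at -1.68 (SE 1.03), Fabp4 at -1.68 (SE 1.08) and Retn at -1.46 (SE 1.07) in CAU against UT by the authors' deposited table. Lpl was at -1.37 (SE 0.71, unadjusted p = 0.0551), and Plin4 was at -1.32 (SE 0.90) by the authors' deposited table. Pparg at -0.22 (SE 0.22) and Lep at -0.10 (SE 0.63) lay nearest to 0 by the authors' deposited table. For 9 of the 10 members the order from high to low was UT, CTX, CAU, and for Plin4 it was UT, CAU, CTX. No step in these orders passed the threshold, and for Lep and Pparg the step between CTX and UT turned round when the median of all genes was set to 0.

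Most adipocyte markers were imprecise next to other genes. In CTX against UT, all 10 members had an SE above the median of all genes, and 6 had an SE above the upper quartile of 0.70. The SE of Cidec, 1.11, was larger than that of 82.1% of genes, and the SE of Plin1, 0.34, was larger than that of 61.9%. The largest unadjusted p among the genes that passed was 0.000612 in this comparison. At its own SE, Fabp4 would have had to differ 11.9-fold to reach that p, Cidec 13.9-fold, Lpl 4.86-fold, Plin1 2.22-fold and Pparg 1.67-fold. In CAU against UT, where the largest p that passed was 1.44e-05, the members' fold needed ran from 1.94 for Pparg to 29.7 for Cidec.

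**Figure D2:**
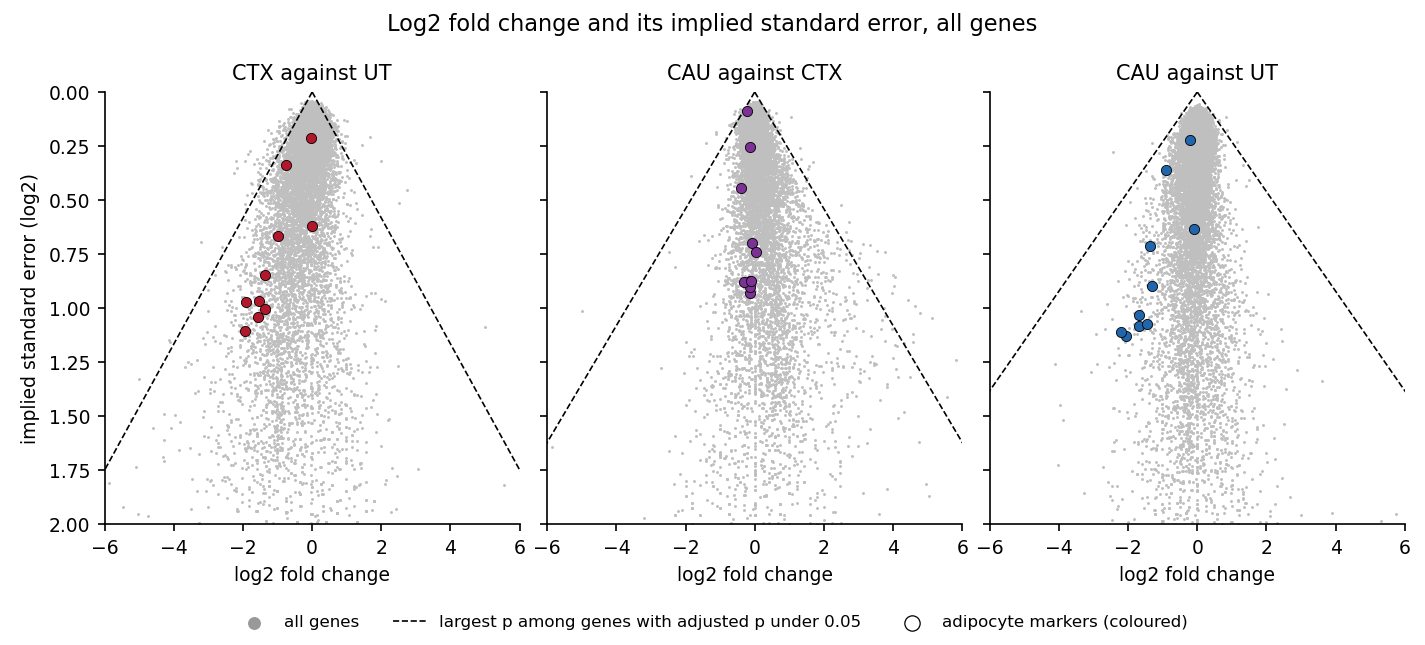
Log2 fold change (x axis) against its implied SE (y axis, precise genes at the top) for the genes of each comparison within the plotted range, grey for all genes and coloured for the 10 adipocyte markers, with dashed lines at the largest unadjusted p that passed. In CTX against UT and CAU against UT the members other than Lep tend to lie further left as their SE grows. Lep lies at -0.01 (SE 0.62) and -0.10 (SE 0.63). In CAU against CTX the members stay between -0.39 and 0.04, and in no comparison does a member lie beyond the dashed lines.

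The 3 SEs of a gene can be divided into a share for each group, if the errors of the groups are taken to add up. Under that assumption the share of UT was the largest in 9 of the 10 members, while UT had the largest share in 57.8% of the 18773 genes with all 3 comparisons. A largest UT share means only that both comparisons with UT had larger SEs than CAU against CTX. For Adipoq the squared error was 0.444 for CAU, 0.322 for CTX and 0.618 for UT in squared log2 units. For Lpl it was 0.132 for CAU, 0.0661 for CTX and 0.376 for UT. Lep was the exception, at 0.254 for CAU, 0.234 for CTX and 0.149 for UT. Whether the authors fitted all groups together or in pairs is not stated in the sources used here. In a single fit, the log2 fold changes of CTX against UT and CAU against CTX would add up to that of CAU against UT. Here the sum missed it by a median of -0.00763, within 0.01 of that in 18772 of 18773 genes. That points to separate fits in pairs. In such fits each pair has its own estimate of spread, so the shares above need not be the groups' own errors. Without values per library, it was not tested whether 1 UT library carries the high values.

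**Figure D3:**
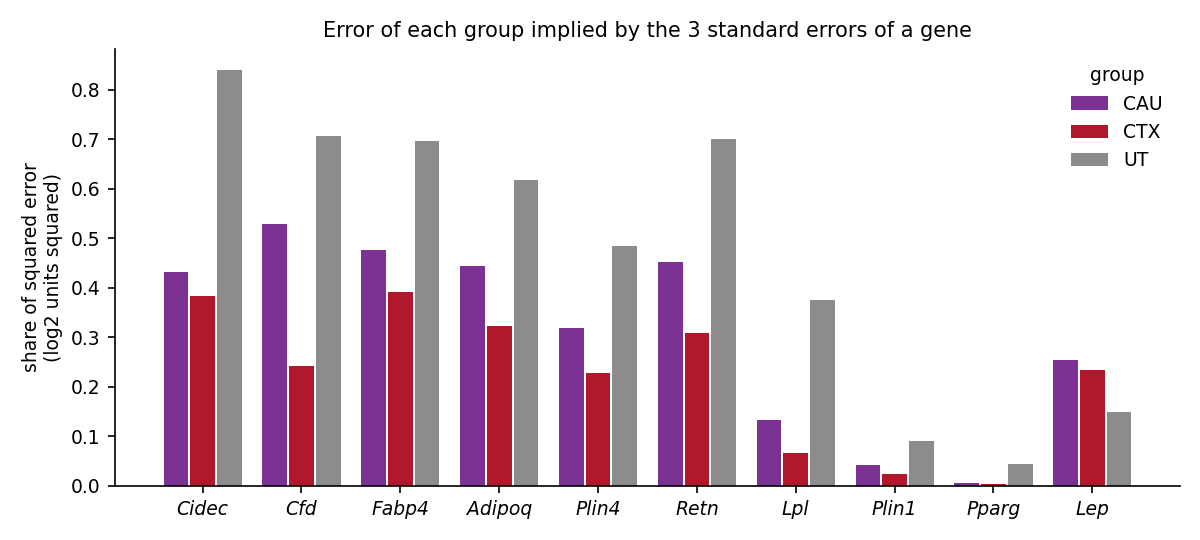
Share of the squared error in squared log2 units (bars) of CAU, CTX and UT for each of the 10 genes, obtained from the 3 implied SEs of a gene. The shares assume that the errors of the groups add up, which separate fits in pairs need not meet. The UT bar is the highest in 9 genes, and for Lep the CAU bar is.

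Start regions are shown for 2 markers that were at -1.54 and -1.36 in CTX against UT, Adipoq and Plin4, and for Lep, which was at -0.01. Each runs 5′ to 3′ over the 250 bases before the transcript start, from RefSeq's promoter table for GRCm38.p6, the build of the submitters' processing notes, which held 8 of the 10 members. Adipoq is on the plus strand at chr16:23146286-23146535, Plin4 on the minus strand at chr17:56109783-56110032 and Lep on the plus strand at chr6:29059971-29060220. The Plin4 window precedes a transcript start at 56109782, whereas RefSeq's span of the gene reaches 56109948, so part of the window lies within that span. Capitals mark CCAAT boxes (CCAAT), TATA boxes (TATAA), C/EBP palindromes (TTGCGCAA) and nuclear receptor elements (AGGTCA) on either strand.
Adipoq: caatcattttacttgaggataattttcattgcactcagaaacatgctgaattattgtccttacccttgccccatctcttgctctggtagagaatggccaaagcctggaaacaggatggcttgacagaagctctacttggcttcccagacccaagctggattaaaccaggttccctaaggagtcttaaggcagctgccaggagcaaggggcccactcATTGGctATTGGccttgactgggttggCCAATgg
Plin4: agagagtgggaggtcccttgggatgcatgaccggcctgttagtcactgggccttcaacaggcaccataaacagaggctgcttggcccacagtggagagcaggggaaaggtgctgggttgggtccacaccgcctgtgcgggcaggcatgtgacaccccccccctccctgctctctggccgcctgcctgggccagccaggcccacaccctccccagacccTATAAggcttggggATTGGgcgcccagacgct
Lep: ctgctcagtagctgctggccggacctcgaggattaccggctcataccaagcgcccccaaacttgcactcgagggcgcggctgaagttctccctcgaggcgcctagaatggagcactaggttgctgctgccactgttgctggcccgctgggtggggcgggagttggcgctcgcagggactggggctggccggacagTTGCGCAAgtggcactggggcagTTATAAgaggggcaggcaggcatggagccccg
Adipoq held 3 CCAAT boxes and no TATA box by these letters. Plin4 held 1 of each, and Lep held 1 C/EBP palindrome and a TATA box that reads on both strands with overlapping letters. Of 32817 such windows of all genes, 33.8% held a CCAAT box, 22.8% a TATA box, 0.165% the C/EBP palindrome and 14.0% an AGGTCA element. The full direct repeat bound by PPAR and RXR, searched as AGGTCANAGGTCA, was in 0.0335% of all windows and in none of the 11 windows of the 8 members. These matches describe letters only.

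The members lie on 7 chromosomes, and by RefSeq's gene table for GRCm38.p6 all 10 are protein-coding. Lep (chr6:29060221-29073876), Cidec (chr6:113424634-113435760) and Pparg (chr6:115360879-115490404) share chromosome 6, and Retn (chr8:3655770-3659818) and Lpl (chr8:68880555-68906932) share chromosome 8. Fabp4 is at chr3:10204342-10208616, Plin1 at chr7:79721164-79732904, Cfd at chr10:79890853-79892655, Adipoq at chr16:23146536-23157968 and Plin4 at chr17:56100587-56109948. The 3 members of chromosome 6 included the member lowest in CTX against UT, Cidec, and the 2 nearest to 0.

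Other genes that adipocytes use were mostly below 0 in CTX against UT as well. Of 11 further mature adipocyte genes, none passed and 8 were negative in CTX against UT (median -1.22). Chosen after their values were seen, Cyp2e1, a cytochrome P450, was at -1.99 (SE 1.03) and Car3, a carbonic anhydrase abundant in mouse fat, at -1.54 (SE 0.92) by the authors' deposited table. Arxes2, the gene of this list with the smallest SE, was at -0.03 (SE 0.10) by the authors' deposited table. In CAU against CTX the list's median was -0.19, and in CAU against UT it was -0.76, with none passing in either.

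Of 10 lipolysis genes, none passed in any comparison, and 9 were negative in CTX against UT (median -0.91). Pnpla2 encodes the lipase that starts triglyceride breakdown. It is named here for its nearness to the members' medians, and it was at -1.30 (SE 0.69) by the authors' deposited table. Lipe, the hormone-sensitive lipase gene, named after its value was seen, was at -1.21 (SE 0.64) by the authors' deposited table. G0s2, which encodes an inhibitor of the first lipase, was at 0.24 (SE 0.28) by the authors' deposited table and had the smallest SE of the list. The medians were -0.05 in CAU against CTX and -1.0 in CAU against UT.

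Of 13 genes of fatty acid uptake and triglyceride synthesis, none passed, and 11 were negative in CTX against UT (median -0.96). Gpam, an acyltransferase of the first step of glycerolipid synthesis, was at -0.07 (SE 0.11) by the authors' deposited table. The fatty acid synthesis list had a median of -0.65 in CTX against UT, -0.20 in CAU against CTX and -0.79 in CAU against UT, with none of 10 passing. Elovl6, a fatty acid elongase, was at -0.33 (SE 0.16, unadjusted p = 0.0368) in CTX against UT and at -0.59 (SE 0.19, unadjusted p = 0.00224, adjusted p = 0.527) in CAU against UT by the authors' deposited table. At an unadjusted p under 0.05, 6 of these 10 genes passed in CAU against UT, where 3.46% of all genes did.

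The adipogenic transcription factors held the 1 gene of these adipocyte lists that passed, in CTX against UT, where 1.29% of all genes did. The lists held 6 to 13 genes each, so 1 gene passing among all of them is no result about the lists. Cebpd, a C/EBP factor of early fat cell differentiation that is also induced in inflammation, fell to 0.591 times the UT level in CTX (-0.76, SE 0.21, adjusted p = 0.0273) by the authors' deposited table. All 12 factors of the list were negative in CTX against UT (median -0.44). Rxra, the partner receptor of PPARγ, was at -0.05 (SE 0.08) in CAU against CTX and at -0.20 (SE 0.10) in CAU against UT by the authors' deposited table. Cebpa, a C/EBP factor of mature fat cells named after its value was seen, was at -0.48 (SE 0.13, unadjusted p = 0.000289, adjusted p = 0.0598) in CAU against CTX by the authors' deposited table. In CTX against UT it was at -0.28 (SE 0.23, adjusted p = 0.846) by the authors' deposited table.

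Genes for sensing adipocyte hormones and insulin had list medians of -0.44 or nearer to 0 in CTX against UT. The 6 adipokine receptor genes had a median of -0.44 in CTX against UT, 0.00 in CAU against CTX and -0.34 in CAU against UT, and none passed. Adipor1, an adiponectin receptor, was at 0.00 (SE 0.05) in CTX against UT by the authors' deposited table. None of 8 insulin response genes passed (median -0.16 in CTX against UT), and Akt2, a kinase of the insulin pathway, was at -0.11 (SE 0.08) by the authors' deposited table. The 11 other lipid droplet proteins, many of which occur outside fat, had a median of -0.11 with 9 negative, and Aup1 was at -0.11 (SE 0.09) by the authors' deposited table. Of 10 other secreted factors none passed, and Rarres2, which encodes chemerin, was at -0.22 (SE 0.07, unadjusted p = 0.00086, adjusted p = 0.0591) in CTX against UT by the authors' deposited table.

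**Figure D4:**
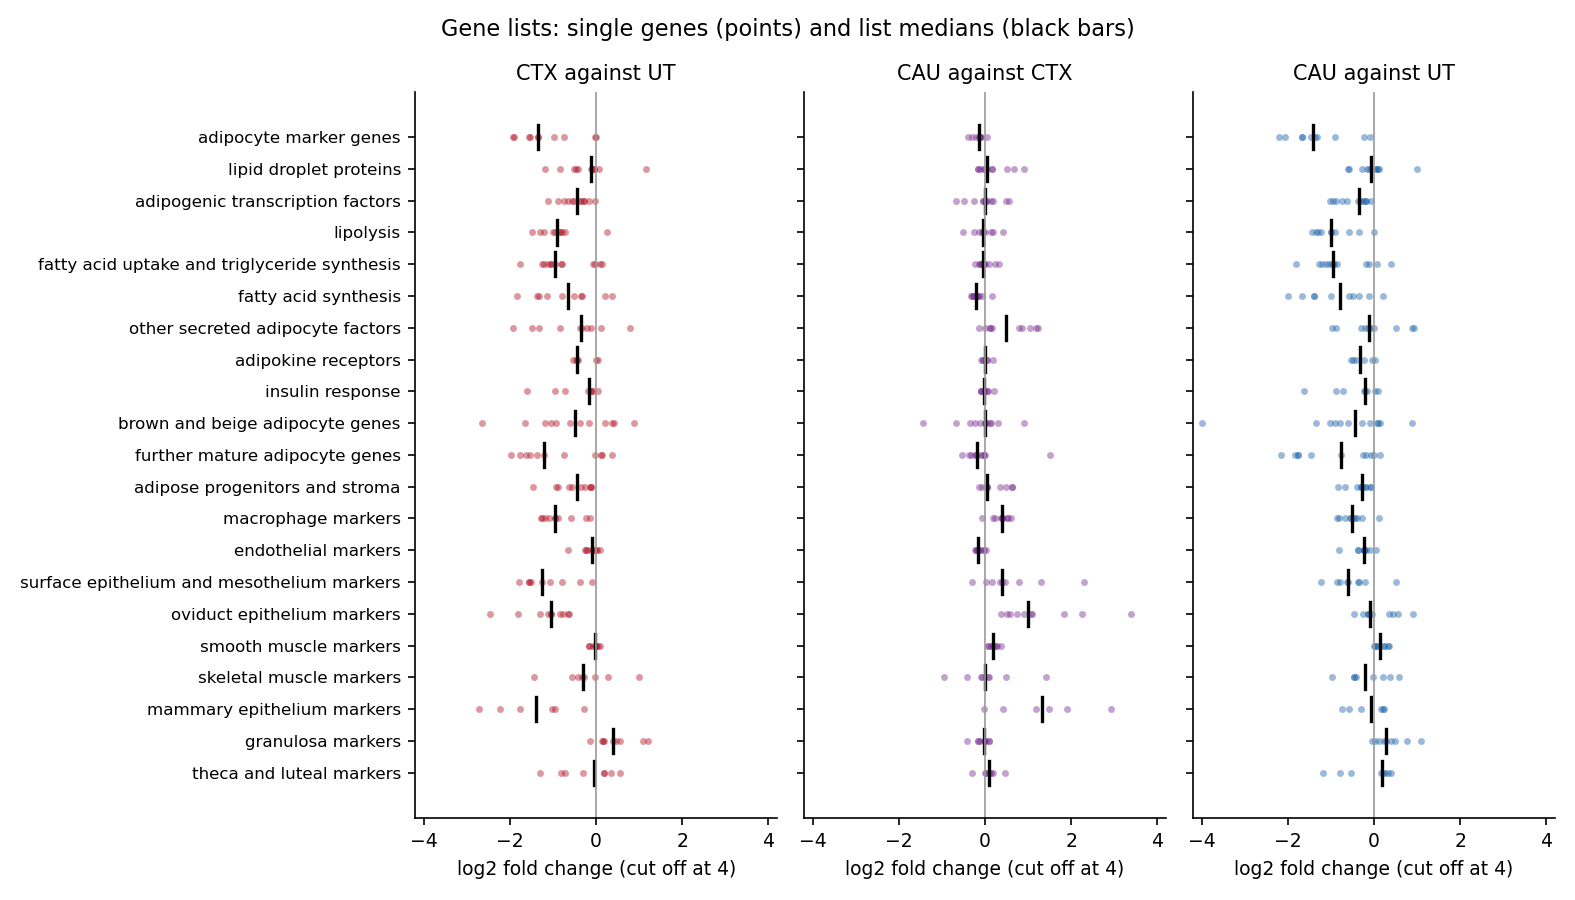
Log2 fold change (x axis, points beyond 4 drawn at 4) of every measured gene of the adipocyte markers and of 20 other lists (rows) in the 3 comparisons, with black bars at list medians. The adipocyte markers have medians of -1.36 in CTX against UT, -0.13 in CAU against CTX and -1.41 in CAU against UT.

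The genes whose pair of values lay nearest to the members' medians were Car5b, Slc7a10, Hcar1, Acp5 and Pnpla2, at distances of 0.01 to 0.06 on the log2 scale. Likeness was measured over 2 values from 3 groups, which is too few to set these genes apart. Car5b, a mitochondrial carbonic anhydrase, was at -1.37 (SE 0.78) in CTX against UT and -0.13 (SE 0.37) in CAU against CTX by the authors' deposited table. Hcar1, a lactate receptor, was at -1.32 (SE 0.65) and -0.16 (SE 0.47) in the same comparisons by the authors' deposited table. None of the 5 passed in any comparison.

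Some markers of other cells passed in CTX against UT, where 1.29% of all genes and no adipocyte marker did. The lists that held them were more precise. Their median SEs were 0.223 for macrophage and 0.425 for surface epithelium markers, against 0.907 for the adipocyte markers. Of 10 macrophage markers, 5 fell and all 10 were negative (median -0.96), with Csf1r, a receptor that macrophages need to survive, at -1.29 (SE 0.18, adjusted p = 1.16e-09) and C1qb, a complement gene, at -0.96 (SE 0.16, adjusted p = 4.13e-06) by the authors' deposited table. Of 9 surface epithelium and mesothelium markers, 2 fell and all 9 were negative (median -1.27). These were Upk3b at -1.27 (SE 0.32, adjusted p = 0.0111) and Lrrn4 at -1.57 (SE 0.42, adjusted p = 0.0233) by the authors' deposited table. The 10 oviduct epithelium markers were all negative (median -1.04, median SE 1.35), and none passed. Their part in the adipocyte values was not tested.

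In CAU against CTX the medians of these lists were above 0, and that of the 10 adipocyte markers was below 0. The adipocyte markers had a median SE of 0.806 there, and the intervals of 9 of the 10 held 0, so the sign of their median is not settled. Some adipocyte lists had medians above 0 too, at 0.48 for the other secreted factors, 0.05 for adipose progenitors and 0.04 for the other lipid droplet proteins. The macrophage list had a median of 0.39 with 2 genes that rose, both for complement C1q. These were C1qb (0.51, SE 0.12, adjusted p = 0.0063) and C1qc (0.43, SE 0.11, adjusted p = 0.0171) by the authors' deposited table. The surface epithelium median was 0.40 (median SE 0.29) and the oviduct median 0.99 (median SE 1.07), with none passing, against -0.13 for the adipocyte markers. The difference between these lists was not tested. Endothelial markers, of the other cells that make Fabp4, had medians of -0.09 in CTX against UT, -0.16 in CAU against CTX and -0.24 in CAU against UT, and none of 10 passed.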

How the data were processed

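The 9 ovarian RNA-seq libraries form 3 groups of 3. The authors' tools, by the submitters' processing notes, included DESeq2 1.44.0, RSEM 1.3.1, Bowtie2 and HISAT2, with GRCm38.p6 as the build, and the notes give them no roles or order. Annotation, filters and covariates were not stated there. The authors' deposited table was the only file used, and no value per library was available to the tests. Per the file headers it holds, for each pair of groups, the authors' log2 fold change, p-value and q-value from DESeq2, and the q-value is called adjusted p here. The deposited q-values differed by at most 7.74e-05 from Benjamini-Hochberg values computed anew over all genes with a value.

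A count test was not possible without counts, so the authors' DESeq2 result stands as the test. From each deposited log2 fold change and p-value an implied standard error was computed, that is |log2 fold change| over |z|, with z from the 2-sided p-value. This takes the test to be a Wald test without shrinkage, and 95% intervals are normal ones. The depth of each library is unknown, and no interval rests on counts. Software was Python 3.11.15 (scipy 1.17.1, numpy 2.4.6, matplotlib 3.10.9, pandas 2.3.3), and the scripts were tested on simulated data.

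The 10 members and the 20 other lists were chosen with earlier results of these data known. Named list genes were up to 2 with an adjusted p under 0.05 per list and comparison, or otherwise the 1 with the smallest implied standard error, and genes outside that rule are said to be so. The 5 genes with the pattern most like the members were those nearest to the members' medians in CTX against UT and CAU against CTX, among genes with an implied standard error of at most 1 in both. Alternatives were other thresholds on the adjusted p, centring, scaling of z, a limit on the implied standard error and other summaries of the members.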

Additional observations from a re-analysis of the deposited data

How the results depend on the processing

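None of the 10 members passed in any comparison, and this held under every alternative run but 1. The limit on the SE did not test all members, as it kept 7 in CTX against UT and 5 in CAU against UT. With z scaled to a robust spread of 1, 1 member passed in CAU against UT, Plin1 (-0.90, adjusted p = 0.04). That scaling multiplies all z values of a comparison whose spread was 0.711, and it took the count over all genes to 255, against 10 as deposited. In CAU against CTX it took the count over all genes to 237, against 85. With a threshold of 0.10 or 0.01 on the adjusted p, the genes passing were 415 or 117 in CTX against UT, against 249 at 0.05, and with 0.01 they were 43 in CAU against CTX. When all genes were centred on their median, Lep was at 0.0107 and Pparg at 0.00266 in CTX against UT, both of opposite sign to the deposited values. The other 139 member values kept their sign and their side of the threshold. Only the centring changes a log2 fold change, so no other setting could turn a sign. A threshold of 0.01 could not make a member pass, so much of this was fixed in advance.

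The members' median depended on how it was taken. A mean weighted by 1/SE squared was -0.47 in CTX against UT, -0.20 in CAU against CTX and -0.62 in CAU against UT, since Pparg and Plin1 have the smallest SEs. Over members with an SE of at most 1 the medians were -0.99 (7 genes), -0.13 (10 genes) and -0.90 (5 genes). Without Fabp4, Lpl and Pparg they were -1.36, -0.12 and -1.46. No paired analysis was possible because the deposited values used are differences between groups, and leaving out single replicates was not run for that reason. Depth is unknown here, and the implied SE sets what could be seen.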

Other observations

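Genes of brown and beige adipocytes, which burn fat for heat, did not pass singly. None of 12 passed in any comparison, with medians of -0.49 in CTX against UT, 0.00 in CAU against CTX and -0.45 in CAU against UT. In CTX against UT 8 of the 12 were negative. Elovl3, a fatty acid elongase named after its values were seen, was lowest at -2.66 (SE 1.4, adjusted p = 0.542) in CTX against UT and at -4.11 (SE 1.26, unadjusted p = 0.00113, adjusted p = 0.385) in CAU against UT by the authors' deposited table. Ppargc1a, a coactivator of PPARγ also named after its value was seen, was at -1.04 (SE 0.52, unadjusted p = 0.047, adjusted p = 0.484) in CTX against UT by the authors' deposited table. Lhx8, with the smallest SE of the list, was at 0.20 (SE 0.29) by the authors' deposited table, and which cells its RNA came from was not tested. The largest SEs of the list in CTX against UT were those of Ucp1 at 0.88 (SE 3.58) and Zic1 at -0.62 (SE 3.2) by the authors' deposited table.

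Genes of adipose progenitors and stroma were all below 0 against UT. All 10 were negative in CTX against UT (median -0.45) and in CAU against UT (median -0.29), comparisons that share the UT libraries, and none passed. Pdgfra, a growth factor receptor of stromal cells, was at -0.11 (SE 0.09) in CTX against UT by the authors' deposited table. Of 8 mammary epithelium genes 6 had values, and none passed. Their medians were -1.39 (median SE 1.24) in CTX against UT, 1.33 (median SE 1.03) in CAU against CTX and -0.07 (median SE 1.29) in CAU against UT. Trp63, with the smallest SE among them, was at -0.29 (SE 0.33) in CTX against UT by the authors' deposited table.

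None of the 8 smooth muscle markers (medians -0.02 in CTX against UT, 0.19 in CAU against CTX and 0.14 in CAU against UT) and none of the 8 skeletal muscle markers (medians -0.30, 0.01 and -0.22 in the same order) passed. Of 9 granulosa markers, 1 rose in CTX against UT (median 0.39), Inhba, which encodes a subunit of activin A, at 1.2 (SE 0.32, adjusted p = 0.0186) by the authors' deposited table. The 8 theca and luteal markers had a median of -0.06 in CTX against UT, and none passed.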
